A study of Drosophila melanogaster with 48 samples.

Results

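Raleigh line 307 (RAL307), one of the inbred lines of the Drosophila Genetic Reference Panel, was compared at stage 5 with the other Raleigh lines of the study, RAL357, RAL360 and RAL517. The samples were chosen by their column labels. They are the 3 stage 5 embryos of RAL307, of 48 embryos in the series, and they were set against 9 stage 5 embryos, 3 of each other line. Each sample is the RNA of 1 whole Drosophila melanogaster embryo, so each line stands for 1 inbred genotype, and no transgene or treatment is named for any of them. The stage 5 embryos are labelled XY. All embryos came from flies on cornmeal food at 25 degrees and from many mothers, and libraries were made from poly-A RNA with stranded reagents. The series also holds stage 2 embryos of these lines, whose sex is not labelled, and 4 lines from Zambia, which are used below only where they bear on RAL307.

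The first RNAs of the fly embryo are loaded into the egg by the mother, and a stage 2 embryo has little else. By late stage 5, when the blastoderm has just become cellular, much of that maternal RNA has been destroyed and the zygotic genome is transcribed, including the genes that divide the embryo into segments and germ layers. A stage 5 level can therefore differ between lines through RNA left from the mother, through zygotic transcription or through both. Germ plasm at the posterior pole protects part of the maternal RNA, and the pole cells that form there become the germline. The piRNA pathway, in which Piwi-family proteins carry small RNAs that silence transposons, is also loaded through that germ plasm.

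The RAL307 stage 5 libraries held 27917326 to 29935288 counts and detected 12184 to 12197 genes. Of the 9 others, 8 held 25394907 to 30692193. RAL360 replicate 3 held 340746 counts and 7199 genes, so that a floor of 3 counts equals 8.80 CPM (counts scaled to library size) in it and at most 0.107 CPM in RAL307. It was kept in the fits unless stated, while the ranges given for the other lines are over the 8 deep embryos. X-linked counts relative to autosomal counts were 0.187 to 0.193 in RAL307 and 0.186 to 0.202 in the other lines. Summed gap genes, which mark the patterned blastoderm, lay at 1336 to 1547 CPM in RAL307 and 1145 to 1689 CPM in the others, and summed yolk, chorion and vitelline membrane genes of the ovary lay at 1.72 to 3.31 and 1.91 to 3.66 CPM, with 6 of those 21 genes at 0. Maternal genes that are normally cleared by this stage summed to 6935 to 7636 CPM in RAL307 and 6733 to 7859 CPM in the others. The ranges of these lists overlapped too. Sums of some other lists, picked here because they did not overlap, were higher in RAL307. Pair-rule genes summed to 2333 to 2632 CPM in it and 1743 to 2303 CPM in the others. Germ plasm and pole cell genes lay at 2069 to 2100 against 1565 to 1785 CPM. In that list aub alone averaged 393 CPM in RAL307 and 98.9, 102 and 127 CPM in RAL357, RAL360 and RAL517. The median log2 fold change of its genes was 0.04, so the sum does not speak for the list as a whole. Dosage compensation genes lay at 1759 to 1965 against 1398 to 1706 CPM, and cell cycle genes at 5724 to 5958 against 5029 to 5640 CPM.

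RAL307 differed from the mean of the other Raleigh lines in 783 of the 9588 genes tested, or 8.17%. Of these, 457 were higher in RAL307 (4.77% of the genes tested) and 326 were lower (3.4%). The genes that were higher had a median log2 fold change of 1.21 and those that were lower one of −0.83, while the median over all genes tested was 0.02. The genes aub, Cyp12d1-d, Idgf2 and AstC stood among those higher, and RpLP0, RpS2, moon, Dhrs4 and Echs1 among those lower. Because whole embryos were sequenced, fewer cells of a type and less RNA per cell cannot be told apart. The test was edgeR's quasi-likelihood test of RAL307 against the mean of the 3 other line coefficients, with Benjamini-Hochberg adjusted p under 0.01. Its p-values measure the spread among embryos of a line. In 272 of the genes tested, under 3 embryos of the other lines reached the level of the low-count filter, so these were tested only because RAL307 expressed them, and 55 of the 457 genes called higher were of this kind. For such genes levels are given without a p-value. Without them 402 genes were higher of 9316 tested. In the other direction, 23 of the 326 genes called lower had no RAL307 embryo at the filter level. With the 9 other embryos taken as 1 group, so that the spread among lines entered the error, 100 genes passed, and with counts summed over each line, 1 sum against 3, none of 11267 did by edgeR and 371 had an unadjusted p under 0.05. Leaving out RAL307 replicate 1, 2 or 3 left 421, 416 and 363 genes, and leaving out the shallow RAL360 embryo gave 874.

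A mean over 3 lines can move with 1 of them. Of the 457 genes that were higher, 65 were also called against each of the 3 lines separately, 146 against 2 of them, 213 against 1 and 33 against none. For the 326 that were lower these counts were 50, 125, 145 and 6. Thus 115 genes, 1.2% of those tested, set RAL307 apart from every other Raleigh line. They were 65 genes higher in RAL307 (0.678%) and 50 lower (0.521%). Some of the 65, such as CG9932, TpnC4 and Dop2R, were tested only because RAL307 expressed them. Some of the 50, such as SP1173 and wam, were tested only because the other lines expressed them. The count of 115 fell to 61 and 65 without RAL517 replicate 1 or 3, to 76 and 67 without RAL360 replicate 1 or 2, and to 70 and 71 without RAL307 replicate 1 or 3, and it was 123 without the shallow embryo. Taken singly, RAL307 differed from RAL360 in 1152 genes (12%), from RAL357 in 837 (8.73%) and from RAL517 in 614 (6.4%). When each Raleigh line in turn was set against the mean of the other 3, over these same 12 embryos, RAL360 had 1377 genes called, RAL357 had 1029, RAL307 had 783 and RAL517 had 719.

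**Figure D1:**
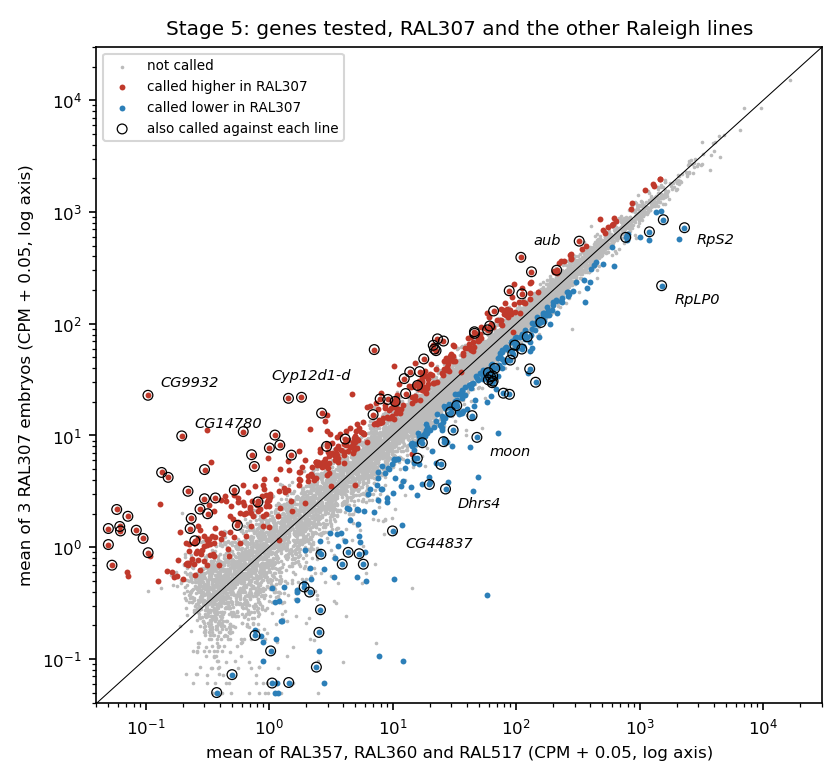
Level of each of the 9588 genes tested at stage 5, with the mean of the 3 RAL307 embryos on the vertical axis and the mean of the other 3 Raleigh line means on the horizontal axis, both in CPM plus 0.05 on log axes. Red points are the 457 genes called higher in RAL307 and blue points the 326 called lower, with a black ring around the 115 that were also called against each line, and the thin diagonal marks equal levels.

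Among the genes that set RAL307 apart, with a mean of at least 5 CPM on the higher side and no overlap between its embryos and the 8 deep embryos of the other lines, 39 were higher and 34 lower. Over all genes tested, 10.2% showed no overlap of that kind, 5.18% with RAL307 higher and 4.99% with it lower. The 12 with the largest change in each direction are described next. They were chosen by the size of that change, so their values describe them and the sizes support nothing further.

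CG9932 had the largest increase. It lay at 25.8, 31.7 and 11.0 CPM in the RAL307 embryos, while the other lines ran from 0 through a median of 0.0176 to 0.304 CPM, 13 counts in all over 9 embryos. The gene was thus at a clear level in every RAL307 embryo and no higher than 0.304 CPM in any other deep embryo. CG14780, on the X chromosome, showed the same kind of contrast. Its levels were 11.7, 10.3 and 7.66 CPM in RAL307 and 0.0401 to 0.306 CPM, with a median of 0.142, in the others. The difference was 67.4-fold between line means. Both genes were tested only because RAL307 expressed them.

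Cyp12d1-d and Cyp12d1-p, neighbouring copies that encode mitochondrial cytochrome P450s linked to insecticide tolerance, were both higher in RAL307. Cyp12d1-d measured 21.0, 24.4 and 19.0 CPM in RAL307 and 0.0990, 1.05 and 3.52 CPM at the lowest, median and highest of the other embryos. Cyp12d1-p measured 22.8, 23.96 and 18.9 CPM in RAL307 and 0.112, 0.935 and 4.82 CPM in the others. In each copy the embryos of RAL307 lay above all others, with log2 fold changes of 4.60 ± 0.24 (SE) and 4.19 ± 0.31. The copies are nearly identical in sequence, so how reads were shared between them, and each copy's own level, are uncertain. Cyp6a20, a P450 that has been tied to male aggression, lay at 11.2, 7.09 and 4.72 CPM in RAL307 and between 0.115 and 2.74 CPM elsewhere (3.77 ± 0.31, adjusted p = 4.71e-06). With the other embryos as 1 group the adjusted p was 0.0133 for Cyp12d1-p and 0.0337 for Cyp6a20.

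Idgf2 belongs to the chitinase-like imaginal disc growth factors, which are secreted. It was at 55.1, 75.6 and 45.4 CPM in RAL307 and at 0.636, 7.32 and 15.8 CPM at the lowest, median and highest of the other embryos, or 8.32-fold higher between line means (3.64 ± 0.23, adjusted p = 5.35e-07). The other lines were not alike, since RAL357 averaged 0.846 CPM while RAL360 and RAL517 averaged 10.4 and 9.88, and with the other embryos as 1 group the adjusted p was 0.0337. Its neighbour Idgf3 was also among the 65, at 3.17, 3.54 and 1.28 CPM against at most 0.441 (3.35 ± 0.34, adjusted p = 4.53e-05). AstC encodes the neuropeptide allatostatin C. Its level was 20.3, 13.3 and 13.8 CPM in RAL307 and 0.918, 1.88 and 5.36 CPM at the lowest, median and highest of the others (2.98 ± 0.18, adjusted p = 4.06e-07). The remaining genes of this direction were CG11294, CG18265, CG7381 and ppk6, the last a subunit of a DEG/ENaC sodium channel, with log2 fold changes of 2.17 to 4.04 and RAL307 means of 5 CPM or more. CG7381 had an adjusted p of 0.0315 with the other embryos as 1 group.

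**Figure D2:**
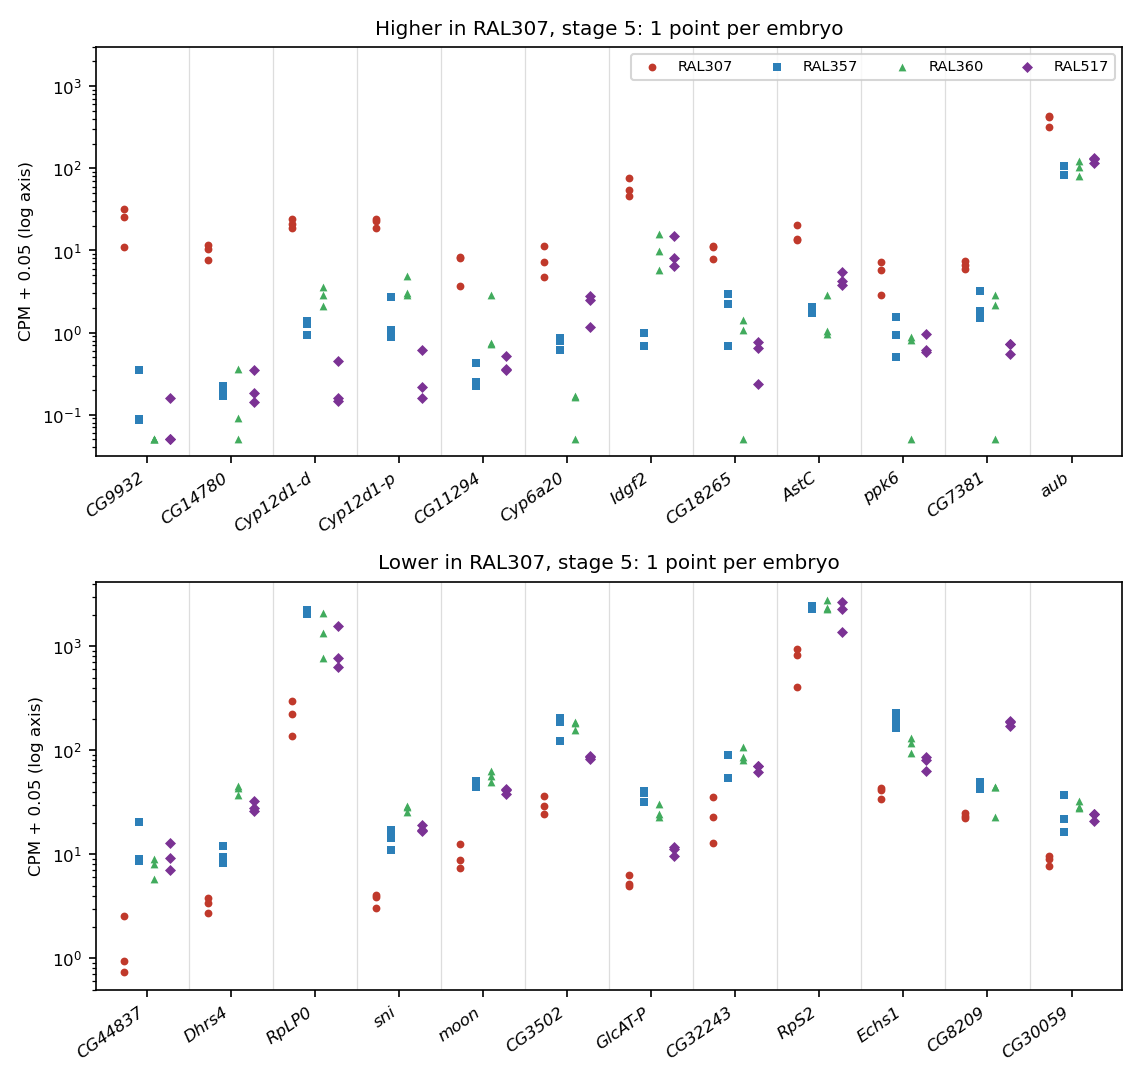
Levels of the 12 genes with the largest increase and the 12 with the largest decrease in RAL307 at stage 5, each point being 1 embryo in CPM plus 0.05 on a log axis, with lines told apart by colour and marker. In the upper panel the RAL307 points lie above all others, and in the lower panel they lie below all deep embryos, while the RAL360 point that sits lowest for several genes is the shallow library, where a single count is near 3 CPM.

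Among the genes lower in RAL307, RpLP0, a protein of the ribosomal stalk, measured 296, 223 and 138 CPM in RAL307 and 636, 1452 and 2235 CPM at the lowest, median and highest of the other embryos. No RAL307 embryo reached the lowest of them, and between line means the level was 6.89-fold lower (log2 fold change −2.70 ± 0.35, adjusted p = 0.000279). The other lines spread widely too, with means of 2143 CPM in RAL357, 1394 in RAL360 and 990 in RAL517. RpS2, of the small ribosomal subunit, was at 824, 944 and 403 CPM in RAL307 and between 1365 and 2765 CPM, with a median of 2353, in the others (−1.67 ± 0.24, adjusted p = 0.000607).

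Dhrs4, a short-chain dehydrogenase, lay at 3.34, 3.77 and 2.69 CPM in RAL307 and at 8.20, 26.9 and 42.9 CPM at the lowest, median and highest of the others, 8.20-fold lower between line means (−2.78 ± 0.17, adjusted p = 4.15e-07). The sniffer carbonyl reductase sni was at 3.99, 2.99 and 3.79 CPM against 10.9 to 29.1 (−2.40 ± 0.17, adjusted p = 1.38e-06). Echs1, an enoyl-CoA hydratase of mitochondrial fatty acid oxidation, was at 43.1, 41.3 and 33.8 CPM against 63.1 to 229 (−1.60 ± 0.15, adjusted p = 1.71e-05), and the glucuronyltransferase GlcAT-P at 4.91, 6.31 and 5.14 CPM against 9.57 to 40.5 (−2.02 ± 0.15, adjusted p = 1.97e-06). In these 4 genes RAL307 lay below every deep embryo of the other lines. With the other embryos as 1 group Dhrs4, Echs1 and GlcAT-P had adjusted p of 0.0115, 0.0226 and 0.0236.

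The remaining genes lower in RAL307 were moon, described with the piRNA genes, and CG44837, CG3502, CG32243, CG8209 and CG30059. CG3502 was at 29.4, 24.2 and 36.2 CPM in RAL307 and at 82.2, 140 and 203 CPM at the lowest, median and highest of the others (−2.19 ± 0.17, adjusted p = 2.52e-06). CG8209 was at 22.1, 23.01 and 24.8 CPM in RAL307 and 42.5 to 189 CPM elsewhere, but RAL517 alone averaged 183 CPM, RAL357 and RAL360 averaged 45.1 and 37.1, and with the other embryos as 1 group the adjusted p was 0.113. Of the 24 genes, 10 overlap another annotated gene, 2 of those higher and 8 of those lower, CG44837 also genes on its own strand. The reagents keep strand, but whether counting used it is not given in the sources used here, so reads of overlapping genes may be mixed. Each of the 24 calls held when any 1 embryo was left out. The genes were picked for large, non-overlapping changes in these same embryos, so this adds no support.

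The piRNA pathway gave changes in both directions. Of its 29 genes tested, 4 were higher in RAL307 (aub, piwi, vls and papi) and 3 were lower (moon, spn-E and mino), beside 4.77% and 3.4% of all genes tested, with a median log2 fold change of −0.03 beside 0.02 over all genes tested. The germ plasm and pole cell list, which shares aub and piwi with it, had these 2 of 14 called higher and none lower. Leaving out RAL307 replicate 1 or 2 left 2 piRNA genes in each direction, and with the other embryos as 1 group only aub and moon were called.

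The gene aub encodes Aubergine, the Piwi-family protein of the germ plasm. Its RNA was at 437, 422 and 320 CPM in RAL307 and at 82.3, 112 and 133 CPM at the lowest, median and highest of the other embryos. The groups were far from overlapping, and the level was 3.60-fold higher between line means (log2 fold change 1.83 ± 0.12, adjusted p = 4.87e-07). At stage 2, in other individuals, aub was again higher, with 382, 391.7 and 374 CPM in RAL307 and 77.2 to 142 CPM in the other lines (1.74, adjusted p = 9.39e-09). The size of the aub difference did not differ detectably between the stages (interaction 0.14 on the log2 scale, adjusted p = 0.575). Its relative piwi, which acts in the nucleus, was at 81.9, 74.4 and 72.3 CPM against 35.4 to 62.3 (0.80 ± 0.13, adjusted p = 0.00148). The piwi RNA was also higher at stage 2, where it was several times as abundant (0.36, adjusted p = 0.000772).

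The gene moon encodes Moonshiner, a germline transcription factor that lets piRNA clusters be transcribed from within heterochromatin. It lay at 7.30, 12.6 and 8.83 CPM in RAL307 and at 38.0, 45.6 and 62.5 CPM at the lowest, median and highest of the others, 5.03-fold lower between line means (−2.31 ± 0.16, adjusted p = 1.24e-06). At stage 2 the RAL307 embryos were split, at 2.63, 20.8 and 4.10 CPM beside 21.2 to 29.1 CPM in the other lines, and the difference missed the threshold (−1.39, adjusted p = 0.0596). A long noncoding RNA near moon, lncRNA:CR43961, was lower as well (−2.40) and was also apart from each line. That RNA was tested only because the other lines expressed it. For spn-E, a helicase of piRNA amplification, RAL307 lay at 65.6, 63.7 and 51.8 CPM, a level it shared with RAL357, which averaged 61.5 CPM, while RAL517 averaged 133 and RAL360 209 (−1.01 ± 0.15, adjusted p = 0.000648). The vls difference was 0.80 (adjusted p = 0.0302) without the line RAL360 and 1.12 (adjusted p = 0.0139) without RAL517. For this gene RAL360 averaged 17.9 CPM and a RAL357 embryo at 65.0 CPM lay within the RAL307 range of 58.6 to 72.3. The papi and mino changes were smaller, with log2 fold changes of 0.96 and −0.65 and adjusted p of 0.00857 and 0.0082. The gene vls overlaps lok on the opposite strand, which was also called higher (0.57).

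**Figure D3:**
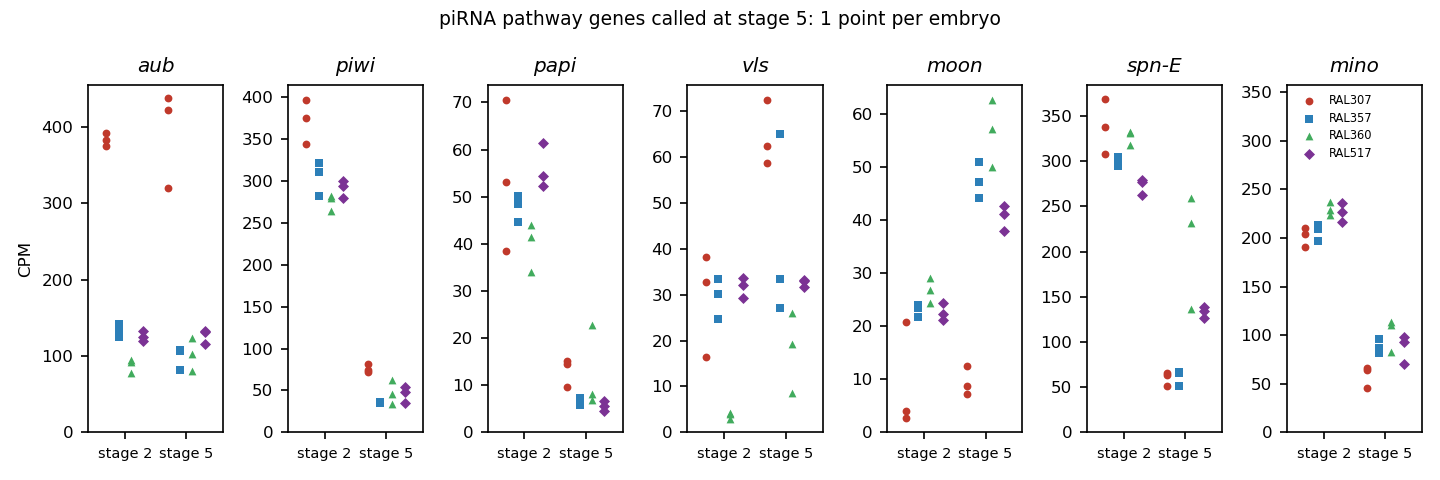
Levels in CPM, on linear axes from 0, of the 7 piRNA pathway genes called at stage 5, with each point 1 embryo of stage 2 or stage 5 and lines told apart by colour and marker. For aub the RAL307 embryos lie at 320 to 437 CPM at stage 5 and at 374 to 391.7 CPM at stage 2, above all others at both, while for moon 1 of the 3 RAL307 embryos of stage 2 lies near the other lines.

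Cytochrome P450 genes encode enzymes that oxidize hormones, lipids and foreign compounds. Of 39 tested, 8 were higher in RAL307 and none was lower, beside 4.77% and 3.4% of all genes tested, and 3 of the 8 (Cyp12d1-d, Cyp12d1-p and Cyp6a20) were higher against each line. The median of the list was 0.11. The other 5 were low in level or shared their level with a further line. Cyp6a13 lay at 21.6, 10.3 and 8.10 CPM in RAL307 and 0.0352 to 14.1 CPM in the others, of which RAL360 held the high values. Cyp6d4 lay at 3.21, 3.32 and 5.48 CPM against at most 2.83, Cyp4d1 at 4.94 to 9.45 CPM against at most 5.86, and Cyp4g1, tested only because RAL307 expressed it, under 1 CPM in every embryo. Cyp6d2 was at 7.98 and 4.81 CPM in RAL307 replicates 1 and 2 and at 0.138 CPM in replicate 3, while RAL360 averaged 5.96 CPM and RAL357 and RAL517 averaged 0.0250 and 0.0426. Its call therefore rests on a mean over lines that were themselves unlike, and RAL307 replicate 3 lay with the low ones. Without RAL307 replicate 1, 5 P450 genes were called, and 4 were called when genes had to reach 5 CPM throughout at least 1 line. With the other embryos as 1 group 1 was called, without the line RAL360 6 were higher and 1 lower, and without RAL357 9 were higher, with 2 lower when a replicate block was added. Of 31 glutathione S-transferase genes, GstE3 was higher (1.86) and GstT1 lower (−1.06), and of 11 UDP-glycosyltransferase genes none was called by edgeR, 1 having an unadjusted p under 0.05. GstE3 was not called without RAL307 replicate 1 or 3, and 3 genes of its family were lower without RAL357 replicate b.

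The called ribosomal protein genes were all lower. Of 85 cytosolic ribosomal protein genes tested, 6 were lower in RAL307 and none was higher, beside 3.4% and 4.77% of all genes tested. The number lower was 4 with the other embryos as 1 group. The list median was −0.18. Beside RpLP0 and RpS2 they included RpLP1, the partner of RpLP0 in the stalk, RpL10Ab and RpL34a. RpLP1 was at 980, 912 and 668 CPM in RAL307 and at 1444, 1583 and 1715 CPM at the lowest, median and highest of the others (−0.87 ± 0.11, adjusted p = 0.000279). RpL10Ab was at 704, 697 and 596 CPM against 916 to 1465 (−0.85 ± 0.11, adjusted p = 0.000321). In both the groups did not overlap, and RpLP0, RpS2, RpLP1 and RpL10Ab were lower against each line. The count rose to 14 genes without RAL360 replicate 3, to 19 with all 24 embryos of the stage in the fit, and fell to 2 when a change above 1.5-fold was required. Summed over the 91 genes of the list, RAL307 embryos held 96323 to 103337 CPM and the other deep embryos 102973 to 134166 CPM, with a median of 116225.

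Mitochondrial ribosomal protein genes were lower in 6 of 71 tested and higher in none, beside 3.4% and 4.77% of all genes tested, with a list median of −0.21. EdgeR called none of them with the other embryos as 1 group, 21 having an unadjusted p under 0.05, and for a change above 1.5-fold it also called none, with 2 at an unadjusted p under 0.05. The largest changes among the 6 were in mRpL18 (−0.92 ± 0.16, adjusted p = 0.00192) and mRpL14 (−0.67 ± 0.10, adjusted p = 0.000606). The mRpL14 levels of 25.8, 26.1 and 27.2 CPM in RAL307 lay just below the others at 31.1 to 57.8. None of the 6 was called against every line, and they numbered 1, 3 and 2 without RAL307 replicate 1, 2 or 3, 9 without RAL357 replicate a and 1 without the line RAL360. Of 36 proteasome genes, Rpt4, Prosbeta1 and Rpn6 were lower by 0.39, 0.52 and 0.52 on the log2 scale, and none was called once any RAL307 embryo was left out. That count was 8, 6 and 5 without RAL360 replicate 2, RAL357 replicate a or RAL517 replicate 2, and 1 without RAL517 replicate 1.

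**Figure D4:**
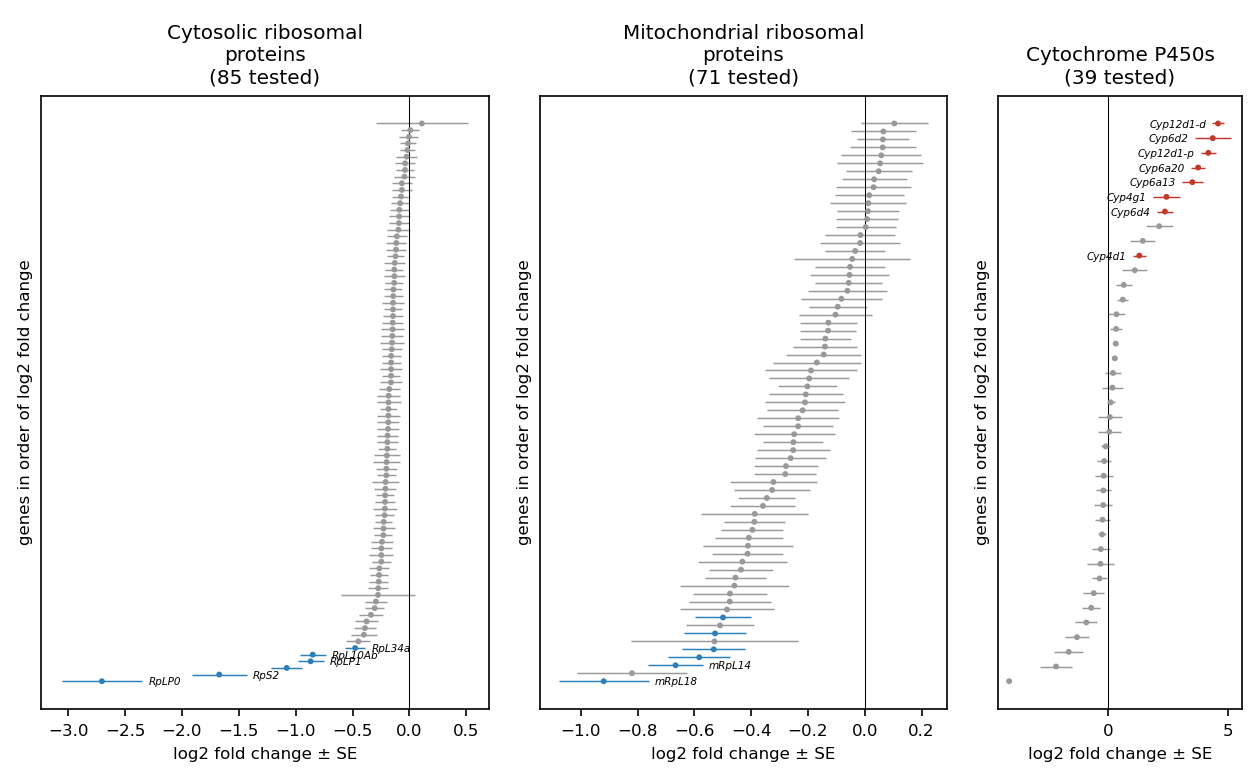
Fitted log2 fold change of RAL307 against the mean of the other Raleigh lines at stage 5 for each tested gene of 3 lists, in order of size, with bars of 1 standard error and no bar for a gene without a usable standard error. Blue genes were called lower and red genes higher, with names beside those described in the text, and most of the 85 cytosolic and 71 mitochondrial ribosomal protein genes lie left of 0 without passing the test.

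Few of the genes that pattern the blastoderm were called. In 6 lists with 82 tested entries, no gene was called in the main edgeR fit. They were gap, segment polarity, Hox, ventral mesoderm and gastrulation, and Bearded and E(spl) genes, and genes that count X chromosomes for sex determination. Of the entries, 20 had an unadjusted p under 0.05, beside 34.1% of all genes tested. Other settings did call some. DESeq2 called 1 gap gene, 1 ventral mesoderm and gastrulation gene and 1 sex determination gene, all higher. Without the line RAL357, edgeR called 1 segment polarity gene in each direction and 1 ventral mesoderm and gastrulation gene higher. Over 12 such lists with 151 genes counted once, 4 were higher and 2 lower, or 3.97% beside 8.17% of all genes tested, with log2 fold changes from −0.77 to 0.85. The 6 calls became 2 without RAL517 replicate 1, RAL307 replicate 1 or RAL307 replicate 3, 3 without RAL517 replicate 3 and 9 without RAL357 replicate a.

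Of these 6 genes, pyr and Moe set RAL307 apart from each line. The gene pyr encodes pyramus, a fibroblast growth factor that guides the mesoderm. It was at 84.5, 73.1 and 96.5 CPM in RAL307 and at 41.2, 45.3 and 57.6 CPM at the lowest, median and highest of the others, 1.84-fold higher with no overlap (0.85 ± 0.12, adjusted p = 0.000367). Moe encodes moesin, which links actin to the membrane, and was at 40.3, 43.6 and 35.6 CPM against 54.5 to 81.9 (−0.77 ± 0.12, adjusted p = 0.000944). The adjusted p was 0.00308 for pyr and 0.0105 for Moe with the other embryos as 1 group. At stage 2 Moe RNA was abundant and near equal, at 486 to 505 CPM in RAL307 and 467 to 551 CPM in the others. The remaining 4 calls were close to the threshold. They were the pair-rule genes slp1 and opa, the latter also a timing factor of the zygotic genome, and the dosage compensation RNA lncRNA:roX1 (higher by 0.72, 0.37 and 0.35, with adjusted p of 0.00993, 0.00968 and 0.00689), and the gut selector fkh (−0.76, adjusted p = 0.00816). Among maternal genes that are cleared, Tl, the receptor of dorsoventral patterning, was the 1 of 30 called, at 314, 185 and 183 CPM in RAL307 and 65.5 to 184 CPM in the others (1.28 ± 0.23, adjusted p = 0.0021). It was not called without RAL307 replicate 1, and 2 genes of the list were called without RAL517 replicate 2 or without RAL357 replicate a or b. CycA and lok, of the cell cycle, were higher by 0.48 and 0.57 among 18 tested, and neither was called without any one of the RAL307 embryos or without RAL517 replicate 1 or 2, while 1 was called without RAL517 replicate 3, RAL360 replicate 1, or RAL357 replicate b or c.

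Of 19 heat shock genes tested, 4 were higher and 1 was lower in RAL307, beside 4.77% and 3.4% of all genes tested, and the calls depended on which line it was compared with. Hsp23, Hsp26 and Hsp27 are small chaperones whose genes lie together on chromosome arm 3L. Hsp27 was at 27.9, 25.0 and 30.6 CPM in RAL307, close to RAL357 at a mean of 27.1 and above RAL360 and RAL517 at 10.4 and 6.97 (1.07 ± 0.13, adjusted p = 0.00017). Hsp23 was at 24.8, 19.1 and 32.6 CPM, between RAL357 and RAL360 at 20.4 and 29.9 and above RAL517 at 2.15 (1.21 ± 0.16, adjusted p = 0.000326). Hsp26 lay at 17.8 to 37.0 CPM against 11.8 to 22.5. Hsc70-2 split the embryos of RAL307, at 37.9, 33.2 and 0.310 CPM, while RAL360 averaged 55.8 CPM and RAL357 and RAL517 averaged 0.111 and 0.0317. Hsp110 was lower (−0.56, adjusted p = 0.00437). Without the line RAL517 no heat shock gene was called, and without RAL307 replicate 3 there were 3, all higher. None was called by edgeR with the other embryos as 1 group, 5 having an unadjusted p under 0.05, and without RAL357 and with a replicate block 3 were higher and 4 lower.

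Among 94 replication-dependent histone genes tested, 18 were higher and 2 lower, beside 4.77% and 3.4% of all genes tested. Those higher were His3 copies, beside 1 His2B copy tested only because RAL307 expressed it, and those lower were His1 copies. They lie in a tandem array of nearly identical units on arm 2L, so reads cannot be assigned to a copy with certainty and the copies are not separate observations. None was called without the line RAL357, and 1 was higher and 2 lower without RAL307 replicate 1, 10 and 2 without RAL360 replicate 1, 11 and 1 without RAL307 replicate 2, and 9 and 1 without RAL307 replicate 3. The lower calls rose to 6, with 18 higher, without RAL360 replicate 3 or RAL357 replicate a. None of these was called by edgeR with the other embryos as 1 group, and 28 had an unadjusted p under 0.05. Of 13 glycolysis genes, Pgi and Hex-C were higher (0.74 and 1.93) and Gapdh1 and Eno lower (−0.67 and −0.77), Hex-C at 1.13 to 1.43 CPM only. The 4 calls became 2 without RAL307 replicate 1 or 2 and 1 without replicate 3. With the other embryos as 1 group edgeR called no gene of the glycolysis, proteasome, cell cycle, cleared maternal and glutathione S-transferase lists, where 7, 13, 3, 5 and 8 genes had an unadjusted p under 0.05. No call was made by edgeR among 10 adult and larval tissue genes or among 7 antimicrobial and peptidoglycan recognition genes, although 3 genes of each list had an unadjusted p under 0.05. Leaving out an embryo let more low genes be tested, and 1 antimicrobial or recognition gene was then called higher in every such fit but the one without RAL307 replicate 2, with 1 more called lower without RAL357 replicate c. For the adult and larval genes 1 was called higher without RAL360 replicate 2, RAL307 replicate 3 or RAL357 replicate a.

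The calls were spread over the genome, with 10.5% of tested genes on arm 2L, 7.78% on 2R, 9.29% on 3L, 7.65% on 3R, 6.16% on X and 4.35% on chromosome 4. On X, 44 genes were higher and 53 lower, while each autosome arm had more genes higher than lower. Some calls lay side by side. In 10 places at least 3 neighbours among the tested genes were called in the same direction, 7 higher and 3 lower. Some members of these runs passed the low-count filter only through RAL307 or only through the other lines, so the runs are a description only. Positions are from the BDGP6 assembly.

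The AstC gene opens the first of these runs, on arm 2L from position 11076165 to 11095096. AstC, AstCC (allatostatin double C), CG16854 and Wdr59 were called higher there. AstCC was at 1.02, 0.748 and 0.759 CPM in RAL307 and at most at 0.266 CPM in the others. On arm 3R, from 8308881 to 8313097, CG11693, CG11694 and CG11698 were called higher. Their RAL307 embryos lay between 1.46 and 4.38 CPM and all deep embryos of the other lines below 0.61. On arm 2L, from 15888640 to 15902410, Tep1, a thioester-containing protein of immunity, CG31823 and CG31821 were at 0.483 to 2.49 CPM in RAL307 and were listed at 0 in most embryos of the other lines, with RAL357 the one that held some Tep1. A run on X from 14851005 to 14871181 held CG9521, CG9519 and CG9518, the last at 6.07, 5.92 and 2.72 CPM against at most 0.477 (4.17 ± 0.38, adjusted p = 1.44e-05). The run on arm 3L from 5133871 to 5139395 held Yod1, CG4611 and Tcs5, with log2 fold changes of −0.96 to −0.48, next to Dhrs4, with CHMP2B between them not called (0.01). Genes of such runs that overlap, such as CG4611 and Tcs5, share sequence on opposite strands and may share reads. Tep1, CG31823, CG31821, AstCC and CG11698 were tested only because RAL307 expressed them.

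Some differences were near all or none. In 24 called genes the RAL307 mean was at least 1 CPM while every deep embryo of the other lines was below 0.5 CPM, and in 5 genes the reverse held, with all RAL307 embryos below 0.5 and each other line at a mean of at least 1. Most of the 24 were tested only because RAL307 expressed them, and all 5 only because the other lines did. The cutoffs differ by direction, so 24 and 5, of 9588 genes tested, describe levels and are not compared. The following were picked from these after their values were seen. TpnC4, a troponin C of muscle, was at 4.02, 5.14 and 4.69 CPM in RAL307 and at most 0.434 CPM elsewhere. Dop2R, a dopamine receptor, was at 1.26, 1.95 and 2.31 CPM against at most 0.0929, and TkR99D, a tachykinin receptor, at 0.614, 1.66 and 1.17 CPM against at most 0.161. These genes act in muscle and nerve, and their levels in RAL307 were low beside CG9932. All 3 were tested only because RAL307 expressed them. SP1173, one of the 5 genes of the reverse kind, was at 0.102, 0.163 and 0.103 CPM, near the floor of 3 counts, and at 1.67 to 3.31 CPM in the others.

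Stage 2 embryos of the same lines were compared to ask which differences were already present in maternal RNA. At that stage RAL307 differed from the mean of the other Raleigh lines in 637 of 7356 genes (8.66%), 389 higher (5.29%) and 248 lower (3.37%), and 89 genes (1.21%) differed from each line, 0.734% higher and 0.476% lower. Of the 457 genes higher at stage 5, 288 could be tested at stage 2, and 73 were higher and 9 lower there. Of the 326 that were lower, 276 could be tested, and 35 were lower and 7 higher. Over all genes tested at both stages, 8.49% were called at stage 2 in either direction. Of the genes apart from each line, 18 of 37 tested were also higher at stage 2, and 8 of 37 were also lower. Some of the genes higher at both stages, such as CG14780, were tested at stage 2 only because RAL307 expressed them. Genes of that kind were not counted at stage 2, so these shares are a description. No embryo was shared between the stages. The stage 2 count fell to 387 and 383 without RAL307 replicate 1 or 2 of that stage and to 406 without RAL517 replicate 1.

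All 7 of the 12 named genes higher at stage 5 that could be tested were also called at stage 2. They were CG14780, Cyp12d1-d, Cyp12d1-p, Cyp6a20, Idgf2, CG7381 and aub. CG14780 averaged 2.70 CPM in RAL307 at stage 2 and at most 0.103 CPM in any other embryo. It was thus tested there only because RAL307 expressed it, and its call adds no support. For Cyp6a20 the RAL307 embryos did not all lie above the others. They had a mean of 16.2 CPM and a standard deviation of 14.1, beside 0.466 to 1.94 CPM in the other lines. CG7381, for instance, was at 20.7, 21.9 and 23.1 CPM at stage 2 in RAL307 and 0.744 to 12.7 CPM in the other lines. The other 5, including AstC and ppk6, had nearly no RNA at stage 2. Among the 12 that were lower, only sni and CG30059 were also called lower at stage 2, of 10 tested. Dhrs4 had 26.3, 29.5 and 23.4 CPM in RAL307 at stage 2, beside 24.1 to 29.9 CPM in the other lines, Echs1 had 185 to 197 against 178 to 217 CPM, and GlcAT-P had 190 to 205 against 156 to 203 CPM. GlcAT-P was called slightly higher in RAL307 at stage 2 (0.17, adjusted p = 0.00584), and all 3 were lower in it at stage 5. RpLP0 was at 856 to 1273 CPM in RAL307 at stage 2 and at 161 to 1417 CPM elsewhere, and RpS2 at 1210 to 1294 and 377 to 1354 CPM, and neither was called there.

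The difference between the stages was tested as an interaction over 24 embryos. It was called in 512 of 9816 genes, or 5.22%, with 3.1% more positive and 2.12% more negative at stage 5, and this number fell to 303 without RAL307 replicate 1 of stage 2 and to 322 without RAL307 replicate 3 of stage 5. Of the 24 named genes, 8 had a called interaction. One was CG9932, at 0.0721, 0.554 and 0.171 CPM in RAL307 at stage 2, which entered this fit through the RAL307 embryos of stage 5 alone, so that its interaction adds nothing to its stage 5 level. Dhrs4, RpLP0, sni, GlcAT-P, RpS2, Echs1 and CG8209 had interactions of −2.97 to −1.52. Among piRNA genes, spn-E also differed between stages (−1.14, adjusted p = 5.5e-05), with 307 to 369 CPM in RAL307 at stage 2. The maternal receptor Tl was not called at stage 2 (−0.09) and had an interaction of 1.43 (adjusted p = 0.001).

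**Figure D5:**
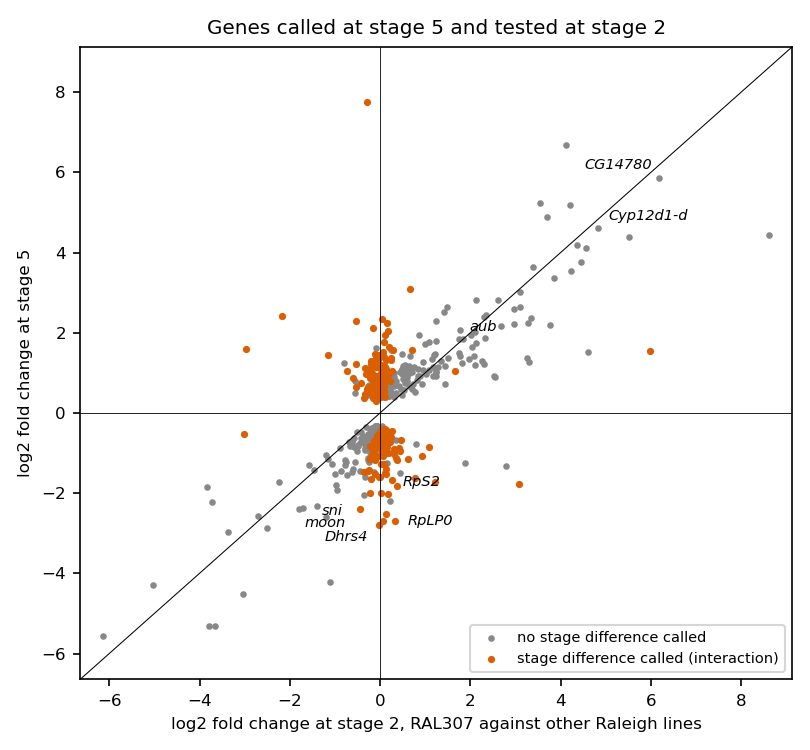
Log2 fold change of RAL307 against the mean of the other Raleigh lines at stage 5 (vertical axis) and at stage 2 (horizontal axis) for the 564 genes called at stage 5 and tested at stage 2, with the diagonal marking equal differences. Orange marks the 243 genes whose difference between stages was itself called, most of them near 0 at stage 2, while aub, CG14780 and Cyp12d1-d lie near the diagonal.

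The Zambia lines put the RAL307 levels in a wider range, with the 24 stage 5 embryos scaled together. In 95 of the 115 genes that set RAL307 apart among Raleigh lines, its mean also lay outside the means of all 7 other lines of the series (82.6%, beside 23.1% of all genes tested). The share is a description, since these genes were chosen for being outside the Raleigh lines. On this scale aub averaged 124 to 210 CPM in the Zambia lines and moon 29.6 to 59.4 CPM, while RAL307 averaged 377 and 9.19 CPM, outside both ranges. In 56 of these genes no Zambia line was nearer on the log scale to RAL307 than to the other Raleigh lines, and in 6 genes all 4 were. Idgf2 averaged 15.8 to 163 CPM in Zambia, Cyp12d1-d 3.99 to 68.2 CPM and Cyp12d1-p 4.73 to 79.6 CPM, so the high levels of RAL307 fell inside the Zambia range. CG32243 averaged 0.522 to 8.20 CPM and CG30059 3.79 to 9.39 CPM there, so that for these the other Raleigh lines, not RAL307, stood highest.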

How the data were processed

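Single whole embryos were used to make stranded poly-A libraries. Reads were trimmed (Cutadapt 1.7), mapped by HISAT2 2.1.0 on the FlyBase 6.18 genome and assigned to genes by featureCounts, with the strand setting not given in the sources used here. The authors deposited raw counts, with no normalization, for 48 embryos. Of the 17481 gene IDs, 17343 matched the newer BDGP6.54 annotation, which gave symbols and positions, and 138 did not (1.13% of counts). The 3 RAL357 columns of a stage share a single replicate number and are called a, b and c.

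Counts were normalized by TMM, kept where filterByExpr, grouped by line, passed them (a count of 10 and a total of 15), then tested in edgeR 4.0.16 (R 4.3.3) by glmQLFit and glmQLFTest with a coefficient per line, each stage fitted separately. Adjusted p-values are Benjamini-Hochberg over all genes tested, with a threshold of 0.01. Standard errors are the log2 fold change divided by the square root of F. CPM values were scaled over the 12 Raleigh embryos of the stage and folds between line means are ratios of them. The authors used DESeq2's likelihood ratio test, which with a Wald test in DESeq2 1.42.0 was an alternative here. On simulated counts for 9326 genes with 200 changed 4-fold at a dispersion of 0.05, the stage 5 test recovered 193 with 1 false call. That simulation gave every gene the same dispersion and the other lines equal means, unlike the data. It checks the code and does not give the error rate of the real contrast. Columns were checked for copies, and none differed by as little as sampling noise. The floor of 3 counts covers counting error only.

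The genes described are the 12 largest changes in each direction under the rule given in the text, called members of gene lists (up to 4 a list by adjusted p, the rest to complete a count) and runs of at least 3 neighbours. The comparison, the members and the lists were chosen with earlier results of these data known. Lists are not independent of each other. Promoter sequence was not used here. A called gene of a list that is not named is not reported here. Alternatives were other thresholds, DESeq2, its size factors, other filters, a joint fit of the 8 lines of a stage, other error terms, a minimum change of 1.5-fold, leaving out each line or embryo, and a replicate block.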

Additional observations from a re-analysis of the deposited data

Results flagged for a closer look

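For 8 of the named genes the difference between RAL307 and the other Raleigh lines was called as unequal between stage 5 and stage 2, by the interaction in edgeR over 24 embryos (stage 5 minus stage 2, log2 scale). The values were −2.69 for Dhrs4 (adjusted p = 2e-09), −2.97 for RpLP0 (adjusted p = 0.00068), −1.88 for sni (adjusted p = 3.1e-07), −2.13 for GlcAT-P (adjusted p = 3.3e-09), −1.87 for RpS2 (adjusted p = 0.0031), −1.52 for Echs1 (adjusted p = 4.8e-07) and −1.53 for CG8209 (adjusted p = 4.3e-08). The value of 8.07 for CG9932 is no separate evidence of a stage difference, since the gene entered the fit only through the RAL307 embryos of stage 5. Over all genes the interaction was called in 566 without the shallow RAL360 embryo and in 512 with it.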

How the results depend on the processing

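All counts are genes at an adjusted p under 0.01 unless stated. Against the mean of the other lines at stage 5 (783 genes), the count was 1895 at an adjusted p under 0.05, 1470 in a joint fit of the 24 embryos of all lines, 169 for a change above 1.5-fold, 100 with the other embryos as 1 group and 0 with sums over lines (edgeR, lowest adjusted p 0.236, 371 of 11267 at an unadjusted p under 0.05), and 363 to 972 with each embryo left out. Against each line separately (115 genes), it was 305 at 0.05, 75 with the filter of 5 CPM, 225 with 24 embryos, 39 above 1.5-fold, 246 and 227 without line RAL357 or RAL360, 234 with a replicate block and without RAL357, and 61 to 123 with each embryo left out. At stage 2 (637 genes), it was 1618 at 0.05, 1149 by DESeq2, 124 with the others as 1 group, 0 with sums (551 at an unadjusted p under 0.05), 123 above 1.5-fold, 382 and 380 without RAL360 or RAL517, and 383 to 790 with each embryo left out. For the interaction (512 genes), it was 1133 at 0.05, 0 with sums (354 at an unadjusted p under 0.05), 85 above 1.5-fold, and 303 to 616. Genes called in the same direction at both stages (108) numbered 303 at 0.05, 57 without RAL517, and 75 to 123. DESeq2 was not run on sums. The count for the mean stayed within 1.5 times of 783 with DESeq2 (973), its size factors (795), no filter (953), the 5 CPM filter (568) and without any line (594 to 860). The 1.5-fold, single-group and sum settings test another question or have fewer degrees of freedom, while the cause of the other shifts was not tested. The difference of vls at stage 2 reversed to −0.078 (adjusted p = 0.841) without line RAL360.

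Replicate numbers were not used to pair embryos in the main fits. After removal of line means, 1 of 9 same-numbered pairs at stage 5 and 3 of 9 at stage 2 correlated above 0.1. The highest values were 0.153 and 0.240. Differently numbered pairs were not set beside them, so this check cannot decide whether the numbers pair embryos. The replicate block, for which RAL357 had to be left out, gave 785 genes at stage 5 beside 860 without the block, 671 at stage 2 beside 632, and 522 for the interaction beside 529.

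RAL307 is 1 line with 3 embryos, so differences between lines in general cannot be inferred, and most counts fall when 1 of its embryos is left out. Genes under about 1 CPM rest on few reads, and none of them can be judged in RAL360 replicate 3.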

Other observations

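Some genes separated the embryos of RAL307 from each other. They were picked after their values were seen, so the values are given without a test. At stage 2 CG32243 was at 0.541, 0.658 and 57.2 CPM in RAL307 replicates 1, 2 and 3 while the other Raleigh lines lay at 83.4 to 105 CPM, moon was at 2.63, 20.8 and 4.10 CPM, and Cyp6a20, a P450, was at 27.5, 20.9 and 0.376 CPM. The embryo that stood apart was thus replicate 3 for CG32243 and Cyp6a20 and replicate 2 for moon. At stage 5 replicate 3 stood apart for Hsc70-2 (37.9, 33.2 and 0.310 CPM) and Cyp6d2 (7.98, 4.81 and 0.138 CPM), genes on different chromosomes, and for both RAL360 was the other line with a high level. The RAL307 libraries of stage 5 were alike in depth, at 27917326 to 29935288 counts.

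The ribosomal protein genes RpLP0 and RpS2 varied among embryos of other lines as well. At stage 2 RpLP0 was at 226, 161 and 783 CPM in the RAL517 embryos and at 973 to 1417 CPM in those of RAL357 and RAL360, and RpS2 was at 418, 377 and 1284 CPM in the RAL517 embryos.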
